A study of Mus musculus with 12 samples.

Results

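Macrophages grown from the bone marrow of mice without the inducible NO synthase were compared with WT macrophages after both had been stimulated with LPS and IFNγ. The comparison used 6 of the 12 arrays of the series, 3 of stimulated Nos2-/- and 3 of stimulated WT BMDMs, chosen by their labels, and covered all 18193 genes that had a probe set naming that gene alone. Where a gene had several probe sets, the brightest on average over the 12 arrays was used. The knockout mice were B6.129P2-Nos2tm1Lau/J and the WT mice were C57BL/6. BMDMs of both genotypes, grown with M-CSF for 6 days, were stimulated for 8 h, with LPS at 100 ng/mL and IFNγ at 50 ng/mL. The other 6 arrays held untreated BMDMs of the same genotypes, which the labels place before stimulation and the methods describe as given vehicle for the same time. The strains were bred in the same room, but no source used here says that they were littermates, and the knockout allele was made in cells of a 129 strain, so genes close to Nos2 may differ between the strains for other reasons. The labels call the 3 arrays of a group biological replicates, but nothing states that they came from separate mice. The p-values then measure only the spread between these samples.

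iNOS, the enzyme that Nos2 encodes, makes NO from arginine in macrophages that sense bacterial products together with IFNγ. NO binds heme and iron-sulfur clusters and modifies cysteine residues, so it reaches iron metabolism, respiration, oxygen sensing and the sensors of oxidative stress. LPS acts through Toll-like receptor 4 and IFNγ through its own receptor, and Nos2 is among the genes that rise most when both are present.

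Nos2 itself was read by 1 probe set, whose log2 signals were 9.73, 9.81 and 9.64 in stimulated WT and 7.74, 7.45 and 7.88 in stimulated Nos2-/- BMDMs, a log2 fold change of −2.03 (SE 0.11, adjusted p = 1.71e-07). Where this probe set lies relative to the deletion is not given, and its signal is therefore no check of the genotype. Macrophage markers were bright in every group, with means of 10 markers between 12.13 and 12.26 on the log2 scale, and none of the 10 differed between the stimulated genotypes. The signals of 8 neutrophil markers summed to between 5905 and 6127 in stimulated WT and between 7577 and 7887 in stimulated Nos2-/- arrays, with 0 of the 8 called by limma and 1 at an unadjusted p under 0.05, and their part in the differences below was not tested. With whole cultures, fewer cells of a type and less RNA per cell cannot be told apart.

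Stimulated BMDMs of both genotypes differed at 535 genes, 2.94% of those tested, at an adjusted p under 0.05. Of these, 188 (1.03% of all genes) were higher and 347 (1.91%) were lower in the absence of Nos2. The falls were also the larger changes. At least 2-fold differences were found in 38 lower and 6 higher genes, and at least 1.5-fold differences in 129 lower and 34 higher genes. The median log2 fold change was −0.47 among the lower genes, 0.41 among the higher genes and −0.01 over all genes. The called genes were bright, with median mean signals of 8.11 (higher) and 8.58 (lower) against 6.12 over all genes. Shares over all genes are therefore a low yardstick for lists of bright genes. The stimulated genotypes did not overlap in 534 of the 535 genes, as in 17.1% of all genes. Genes of the Nrf2 and cytokine lists, 32 of the 535, were set aside here, which left 179 higher and 324 lower genes. These lists may not be complete, so a gene outside them can still be an Nrf2 target or a cytokine. The chemokine precursor Ppbp and the TNF family ligand Tnfsf4 are examples among the largest falls below. Slc40a1, Ptgr1, Sqstm1 and Idh1 are also outside the Nrf2 list, and whether they belong to the Nrf2 response was not tested. A model of only the 6 stimulated arrays called 59 genes higher and 175 lower. In it, 49 of the 132 called genes named by the rule given below lost the call. Leaving out WT replicate 1, WT replicate 2 or Nos2-/- replicate 1 of the stimulated arrays brought the higher genes to 102, 108 and 125.

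**Figure D1:**
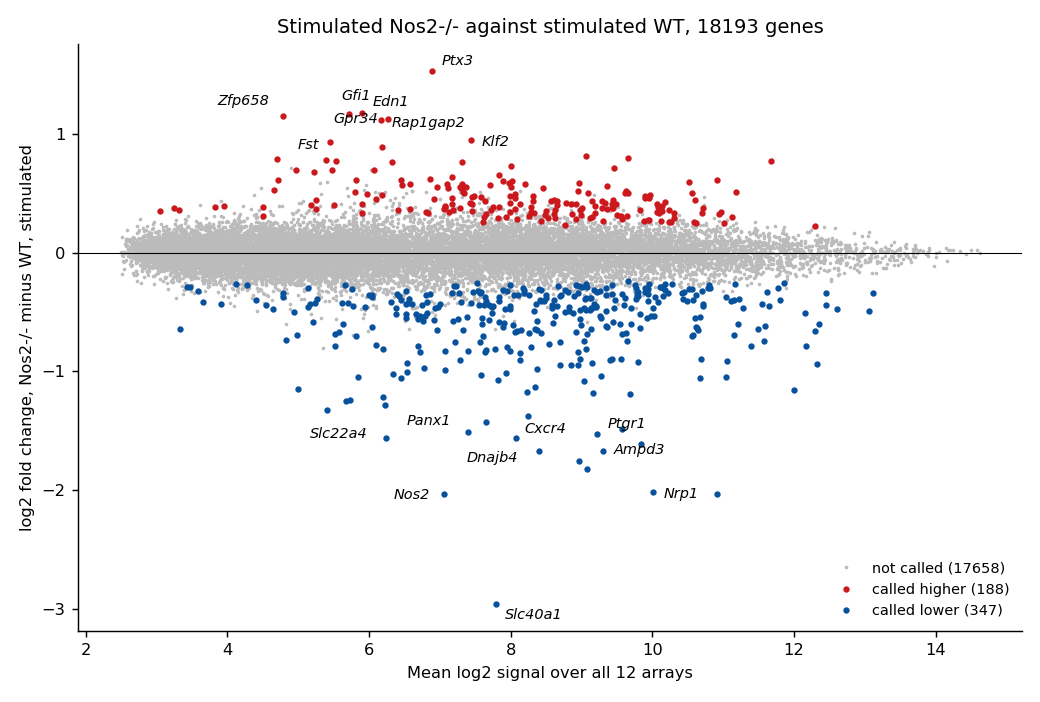
Log2 fold change of stimulated Nos2-/- against stimulated WT (vertical axis) by mean log2 signal over all 12 arrays (horizontal axis), 1 point per gene, for 18193 genes. Red points are the 188 genes called higher and blue points the 347 called lower. Names mark Nos2 and the 8 largest rises and falls outside the Nrf2 and cytokine lists, and the falls reach −2.96 while the rises end at 1.53.

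The gene that fell farthest was Slc40a1, which encodes ferroportin, the exporter of iron from cells. Its log2 signals were 8.89, 8.68 and 8.96 in stimulated WT and 5.88, 5.91 and 5.85 in stimulated Nos2-/- arrays, 7.8-fold lower (log2 fold change −2.96, SE 0.093, adjusted p = 1.19e-09). The genotypes were far apart and the 3 knockout arrays nearly equal, and the other probe set of the gene gave −2.98. Nrp1, a co-receptor for semaphorins and VEGF, followed with 9.09, 9.09 and 9.02 against 7.24, 6.79 and 7.12, a log2 fold change of −2.02 (SE 0.098, adjusted p = 5.33e-08). All 4 of its probe sets were called lower, with log2 fold changes from −2.10 to −0.67. Stimulation lowered Nrp1 in both genotypes, and the knockout arrays ended below the WT arrays.

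Ampd3, an AMP deaminase that turns AMP into IMP, had log2 signals of 10.62, 10.43 and 10.45 in stimulated WT and 8.96, 8.98 and 8.55 in stimulated Nos2-/- BMDMs, a log2 fold change of −1.67 (SE 0.10, adjusted p = 5.28e-07). The untreated means were 8.96 in WT and 8.94 in Nos2-/-, so the WT arrays rose with stimulation while the knockout arrays stayed near their untreated level. Panx1, a membrane channel that releases ATP, showed 8.25, 8.12 and 8.12 against 6.87, 6.66 and 6.42 (log2 fold change −1.51, SE 0.094, adjusted p = 6.55e-07). Its untreated means of 7.44 and 7.36 lay between those of the stimulated genotypes. Slc22a4, a carrier of carnitine and ergothioneine, was at 7.04, 7.30 and 7.33 in WT and at 5.86, 5.55 and 5.58 in Nos2-/- (log2 fold change −1.56, SE 0.093). Stimulation changed it by 1.32 in WT and by −0.49 in Nos2-/- on the log2 scale, in opposite directions. Ptgr1, a reductase that inactivates prostaglandins and leukotriene B4, had the smallest error of the 20 largest falls, with 10.11, 10.16 and 10.12 in WT against 8.68, 8.57 and 8.56 in Nos2-/- (log2 fold change −1.53, SE 0.075, adjusted p = 6.01e-08).

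The other genes among the 20 largest falls were of several kinds. Cxcr4, the receptor for CXCL12, was at 5.88, 6.20 and 6.14 in stimulated WT and 4.98, 4.23 and 4.32 in stimulated Nos2-/- arrays (log2 fold change −1.56), both far below the untreated means of 10.88 and 10.82. The stimulated Nos2-/- values lay below the median signal of every array, and as no detection calls were used here, they may not be above background and the size of this fold is uncertain. Treml4, a receptor of myeloid cells, fell by 1.33, and Tnfsf4, the OX40 ligand that costimulates T cells, by 1.25 on the log2 scale. Among regulators, the AP-1 subunit Fosl1 fell by 1.22, the small GTPase Rhob by 1.19 and Cebpa, a transcription factor of the myeloid lineage, by 1.17. Cebpa had been at 9.65 in untreated WT and 9.48 in untreated Nos2-/- arrays, and its stimulated values of 7.54, 7.53 and 7.37 in WT stood above the 6.58, 6.45 and 5.89 of Nos2-/-. The electron carrier Cyb5a, very bright in all arrays, fell by 1.15 and Trp53inp1, a stress protein induced by p53, by 1.13. Afp, which encodes alpha-fetoprotein, had a log2 fold change of −1.43, but its 5 probe sets ran from −1.43 to 0.17 and 3 were called. Ppbp, a chemokine precursor of platelets, had a log2 fold change of −1.24 with the widest spread of the 20 (SE 0.24, adjusted p = 0.0105) and did not pass in a model of only the 6 arrays. Its stimulated Nos2-/- mean of 4.50 lay below every array median, so the size of its fold is uncertain too. Ppbp and Vwf, a platelet and endothelial adhesion protein, were the 2 of 9 megakaryocyte markers called lower. The signals of these 9 markers summed to between 2641 and 3226 in stimulated WT and between 2210 and 2594 in stimulated Nos2-/- arrays, and were 6466 or more in every untreated array.

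The largest rises in stimulated Nos2-/- BMDMs were of several kinds. Ptx3, a secreted pattern recognition protein, led with 8.15, 8.10 and 8.22 in WT and 9.73, 9.21 and 10.14 in Nos2-/-, a log2 fold change of 1.53 (SE 0.17, adjusted p = 0.000175). The knockout arrays varied more among themselves than the WT arrays and all lay above them, while a dimmer probe set of Ptx3 gave 0.05. Edn1, the precursor of the vasoconstrictor endothelin 1, was at 6.26, 6.39 and 6.51 in WT and 7.65, 7.31 and 7.74 in Nos2-/- (log2 fold change 1.18, SE 0.14, adjusted p = 0.000308). Its receptor Ednrb went the other way, from 7.89, 8.17 and 8.15 in WT to 7.18, 7.02 and 6.85 in Nos2-/- (log2 fold change −1.05, adjusted p = 6.5e-05). Both genes rose upon stimulation in each genotype, and the rise of Ednrb was smaller in Nos2-/- (adjusted p of the difference = 0.0016), while for Edn1 the log2 rises were 1.71 in WT and 2.63 in Nos2-/- (adjusted p of the difference = 0.0495). Gfi1, a zinc finger repressor, showed 7.00, 7.20 and 7.19 against 8.14, 8.15 and 8.59 (log2 fold change 1.16, SE 0.14, adjusted p = 0.000277), and the zinc finger genes Zfp658 and Zfp558 were higher by 1.15 and 0.77. The stimulated WT mean of Zfp658, 4.82, lay below every array median, so the size of its fold is uncertain.

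Gpr34, a receptor for lysophosphatidylserine, was lowered by stimulation in both genotypes but less so in the knockout. Its log2 signals were 4.65, 4.50 and 4.65 in stimulated WT and 6.06, 5.25 and 5.85 in stimulated Nos2-/- (log2 fold change 1.12, SE 0.17, adjusted p = 0.00184), whereas untreated Nos2-/- had the lower mean, 7.03 against 7.71. Klf2, a transcription factor that restrains inflammatory activation, followed the same course, with 5.80, 6.10 and 5.90 in WT and 7.08, 6.62 and 6.93 in Nos2-/- after stimulation (log2 fold change 0.95, SE 0.13). Txnip, which binds thioredoxin and limits glucose uptake, fell from an untreated mean of 12.12 in WT to 10.89, 10.96 and 10.73, and in Nos2-/- only to 11.63, 11.61 and 11.65 (log2 fold change 0.77, SE 0.066, adjusted p = 1.67e-05). The stimulated WT values of Gpr34 lay below every array median, so the size of its fold is uncertain. In these 3 genes the difference between the genotype effects was called too.

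Fst, which encodes follistatin, the antagonist of activin, was higher by 0.93, the corepressor Tle3 by 0.81, the deubiquitinase Otud1 by 0.76, the lymphangiogenic factor Vegfc by 0.76, Rcl1, which acts in ribosome assembly, by 0.71 and Mir155hg, the host transcript of miR-155, by 0.70 on the log2 scale. Ch25h, which makes 25-hydroxycholesterol, was at 9.83, 10.13 and 9.87 in WT and 10.64, 10.41 and 11.19 in Nos2-/- (log2 fold change 0.80, adjusted p = 0.00954). Rap1gap2, a GTPase-activating protein for Rap1, and Slc6a4, the serotonin transporter, were higher by 1.12 and 0.89, and both lie near Nos2 on chromosome 11. Of the 20 largest rises, 5 were less firm. Adora3, an adenosine receptor, was higher by 0.78 in 1 of its 2 probe sets and by 0.00 in the other. Sptssb, a subunit of serine palmitoyltransferase, was at 0.79 and lost its call without WT replicate 1 or 2 of the stimulated arrays (adjusted p up to 0.106 over all settings), and Tpbg, a membrane glycoprotein, was at 0.70 and kept its call in 8 of the 12 fits that left out an array. Ch25h and Mir155hg did not pass in a model of only the 6 arrays or without moderation of the variance.

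**Figure D2:**
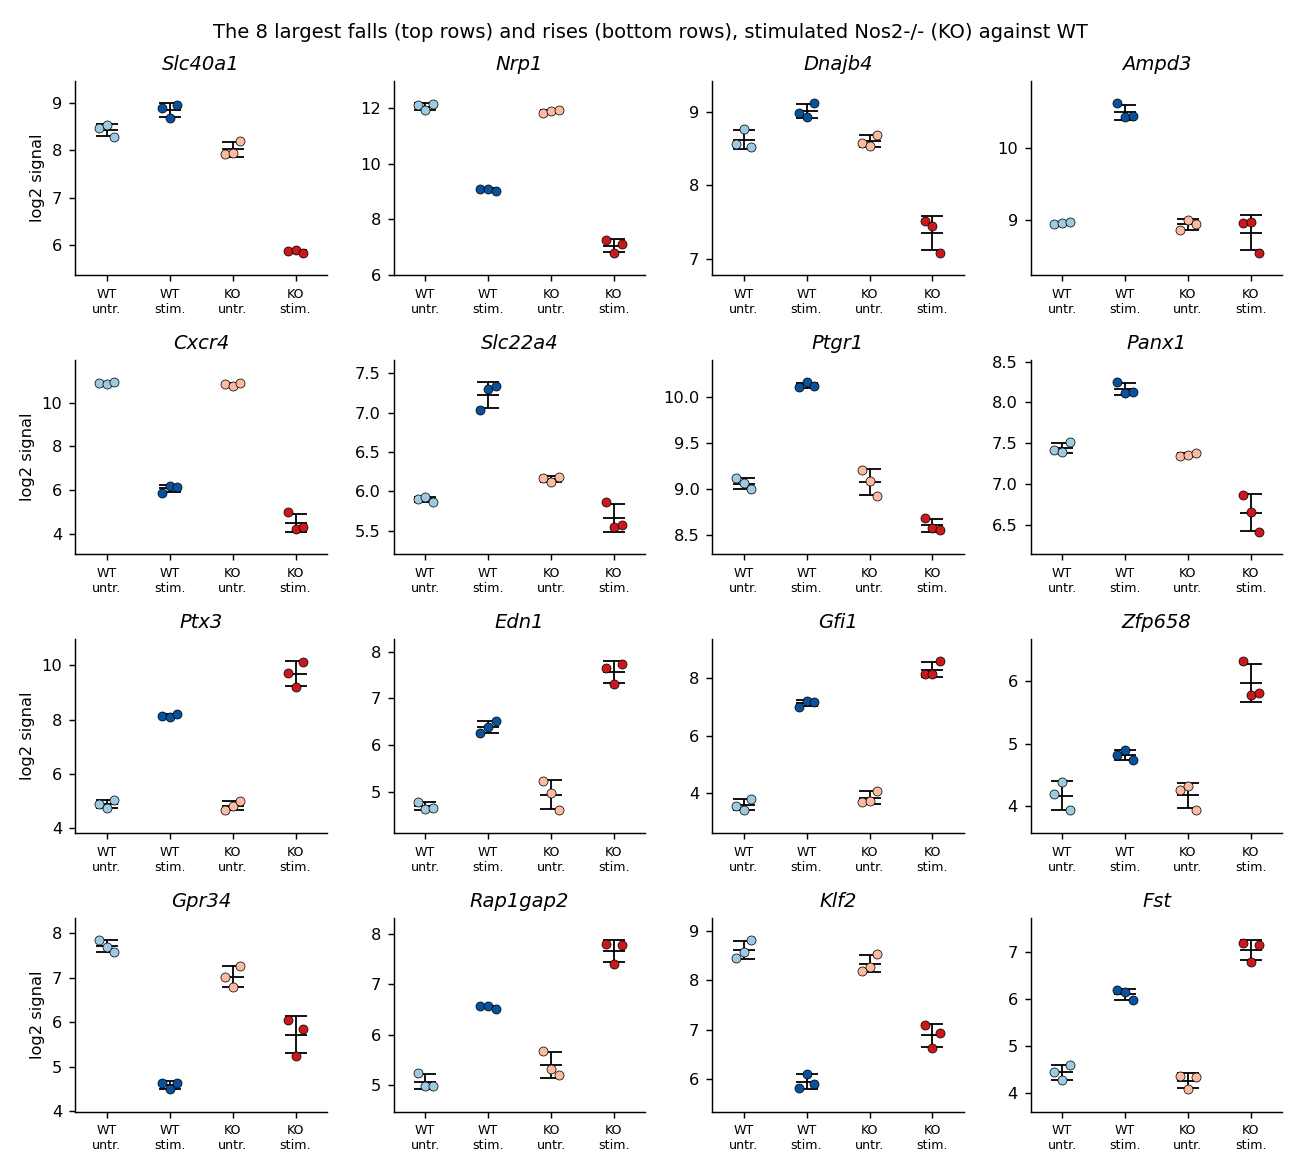
Log2 signal of every array for the 8 largest falls (upper 2 rows) and the 8 largest rises (lower 2 rows) outside the Nrf2 and cytokine lists. Points are arrays, 3 per group, and bars are the mean and SD; KO stands for Nos2-/-, untr. for untreated and stim. for stimulated. Each vertical axis has its own range, and all 16 genes were picked among called genes whose stimulated knockout and WT arrays did not overlap.

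Several targets of HIF1a outside glycolysis were lower in stimulated Nos2-/- BMDMs, and none was higher. HIF1a is the transcription factor of the response to low oxygen, which also accumulates in macrophages given LPS, and it binds an element with the core ACGTG. Of 28 measured targets, 9 (32.1%) were lower, 0 higher and 19 did not pass the test, with a median log2 fold change of −0.15 against −0.01 over all genes, and 24 of 28 below 0. Over all 18193 genes, 9475 lay below 0, 1.91% were called lower and 1.03% higher, the background for this and every later list. The lists were chosen with earlier results of these data known, so their shares of calls are no independent test. Under the alternatives that keep the threshold, between 7 and 10 were lower and 0 higher. Adm, the precursor of the vasodilator adrenomedullin, was at 6.03, 6.32 and 6.33 in WT and 5.18, 5.03 and 5.03 in Nos2-/- (log2 fold change −1.15, SE 0.11, adjusted p = 5.97e-05). The Nos2-/- mean of Adm, 5.08, lay below every array median, so the size of this fold is uncertain. Egln3, an oxygen-dependent prolyl hydroxylase that marks HIF proteins for decay, was at 10.24, 10.39 and 10.27 in WT and 9.46, 9.25 and 8.98 in Nos2-/- (log2 fold change −1.07, SE 0.15, adjusted p = 0.000899). Both genes rose upon stimulation in each genotype, Egln3 from untreated means of 5.80 and 5.95, and the knockout arrays rose less far.

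The growth factor Vegfa, which acts on blood vessels, had log2 signals of 8.85, 9.14 and 8.94 in WT and 8.37, 7.96 and 8.21 in Nos2-/- (log2 fold change −0.80, SE 0.13, adjusted p = 0.00301). Ankrd37, an ankyrin repeat protein induced by low oxygen, showed 9.54, 9.58 and 9.59 against 8.95, 8.60 and 8.77 (log2 fold change −0.80, SE 0.078, adjusted p = 4.56e-05). P4ha2, a subunit of the collagen prolyl hydroxylase, was lower by 0.70 and Mxi1, a repressor that opposes Myc, by 0.68 on the log2 scale. The other 3 calls were the oxidase Ero1a (−0.54), the lipid droplet protein Hilpda (−0.40) and the nuclear receptor Rora (−0.35). The bright targets Bnip3, a mitophagy receptor, Mif, a cytokine-like tautomerase, and Higd1a, a mitochondrial protein, did not pass the test, at −0.04, −0.09 and −0.14. In untreated arrays the median of the 28 targets was 0.00 and 0 were called by limma. HIF1a also drives many glycolytic genes. Of 28 of these, 0 were higher and 2 lower (7.1%), the glucose transporter Slc2a3 (−0.53) and the glycogen branching enzyme Gbe1 (−0.51). A dimmer probe set of Slc2a3 was called lower too, at −0.61, with stimulated means of 4.36 in WT and 3.75 in Nos2-/-. With its probe sets ending in _s_at, _x_at or _a_at left out, Slc2a3 stood at −0.07, with means of 4.03 and 3.96. These 4 means and the stimulated Nos2-/- mean of its brightest probe set, 4.81, lay below every array median. Gbe1 was not called without WT replicate 2 or Nos2-/- replicate 3 of the stimulated arrays (adjusted p up to 0.0752). The bright Pgk1, Aldoa and Pkm stood at −0.11, −0.13 and −0.08 without passing the test.

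Promoter windows of 3 of these targets are shown because they hold the core that HIF1a binds. Each runs 5′ to 3′ on the gene's strand from 250 bases before to 50 bases after the annotated start (RefSeq, GRCm38.p6). Capitals mark ACGTG on either strand. The windows are Ankrd37 at chr8:45999801-46000100, Egln3 at chr12:54203825-54204124 and P4ha2 at chr11:54100674-54100973, the first 2 on the minus strand and P4ha2 on the plus strand.
Ankrd37: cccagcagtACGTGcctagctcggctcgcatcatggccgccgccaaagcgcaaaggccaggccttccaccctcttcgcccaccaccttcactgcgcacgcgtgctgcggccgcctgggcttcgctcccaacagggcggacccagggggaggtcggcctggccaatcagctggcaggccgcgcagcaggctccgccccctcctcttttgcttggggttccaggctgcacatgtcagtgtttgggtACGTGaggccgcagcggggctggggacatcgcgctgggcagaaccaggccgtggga
Egln3: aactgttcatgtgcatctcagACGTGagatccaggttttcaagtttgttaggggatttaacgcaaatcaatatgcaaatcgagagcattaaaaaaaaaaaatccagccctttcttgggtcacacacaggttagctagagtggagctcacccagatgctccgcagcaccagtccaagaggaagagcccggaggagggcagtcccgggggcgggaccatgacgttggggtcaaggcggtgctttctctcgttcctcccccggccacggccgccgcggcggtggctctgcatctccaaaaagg
P4ha2: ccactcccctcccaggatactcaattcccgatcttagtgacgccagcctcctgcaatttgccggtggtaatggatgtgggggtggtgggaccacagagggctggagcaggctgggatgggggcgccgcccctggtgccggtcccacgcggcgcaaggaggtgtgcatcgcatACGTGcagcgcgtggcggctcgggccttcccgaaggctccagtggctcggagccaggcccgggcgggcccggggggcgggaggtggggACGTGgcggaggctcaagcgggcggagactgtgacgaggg
At least 1 window of the gene held ACGTG on either strand in 8 of the 9 targets called lower (88.9%), against 26.2% of the 14367 measured genes that had a window and 19.6% of all 32851 windows. HIF1a targets are known in part through this element, so the choice of the list partly fixed this contrast. Of all 347 genes called lower, 274 had a window, too few for a check of the whole set, and 26.3% of these held the core, close to the share of all genes. The core is also contained in the E-box CACGTG, and a match describes the letters alone. The window of Adm held no match.

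**Figure D3:**
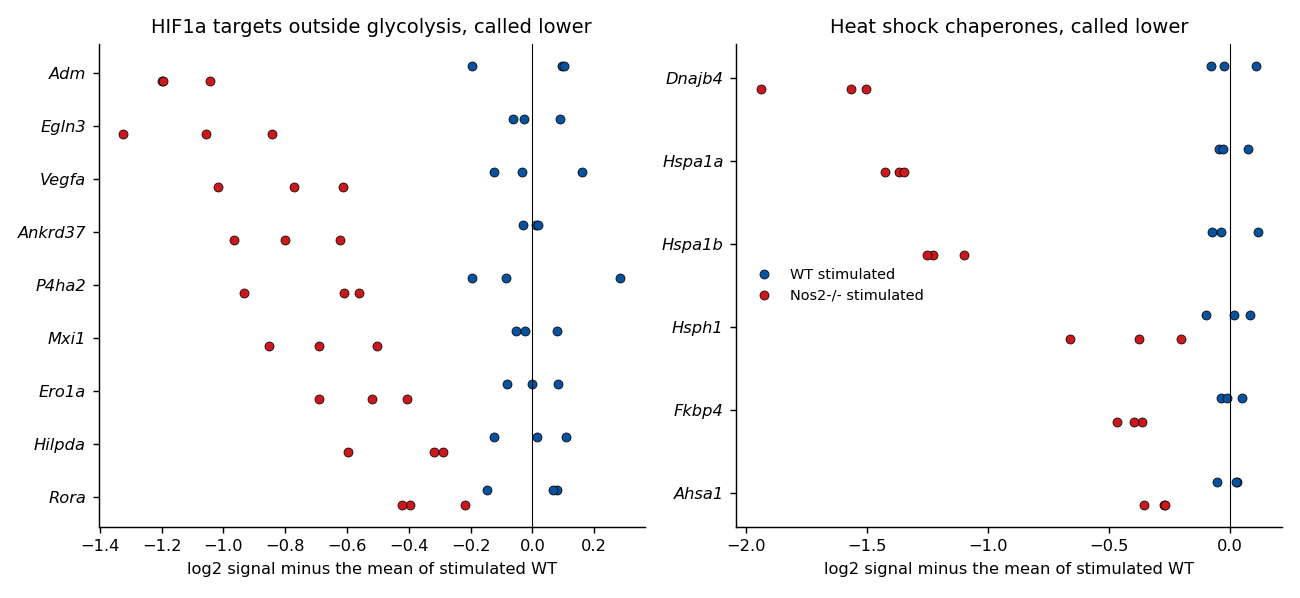
Log2 signal of each stimulated array minus the mean of the 3 stimulated WT arrays, for the 9 HIF1a targets (left) and the 6 heat shock chaperones (right) called lower. Blue points are WT and red points Nos2-/- arrays, 3 per genotype, and in all 15 genes every knockout array lies to the left of every WT array.

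Some inducible heat shock chaperones were lower as well. These proteins refold damaged proteins and are induced by the factor Hsf1 through elements built of repeated GAA units. Of 24 measured chaperones and co-chaperones, 6 (25.0%) were lower, 0 higher and 18 did not pass the test, with a median log2 fold change of −0.16 and 20 of 24 below 0. Of all 18193 genes, 1.91% were called lower and 9475 lay below 0. Dnajb4, a co-chaperone of the HSP40 family, was at 8.99, 8.94 and 9.12 in stimulated WT and 7.51, 7.45 and 7.08 in stimulated Nos2-/- arrays (log2 fold change −1.67, SE 0.11, adjusted p = 8.98e-07). Of its 3 probe sets 2 were called, and the dimmest stood at −0.07. Hspa1a, an inducible HSP70, had log2 signals of 11.05, 11.17 and 11.07 in WT and 9.73, 9.67 and 9.75 in Nos2-/- (log2 fold change −1.38, SE 0.10, adjusted p = 5.5e-06). Hspa1b, its near-identical neighbour on chromosome 17, was at 11.66, 11.85 and 11.70 in WT and 10.51, 10.64 and 10.49 in Nos2-/- (log2 fold change −1.19), and the probe sets of this pair may read both transcripts. Stimulation raised Hspa1a by 5.06 in WT and 3.58 in Nos2-/- on the log2 scale, so the gene was strongly induced in both genotypes.

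Hsph1, an HSP110, and the co-chaperones Fkbp4 and Ahsa1 were lower by smaller amounts, with log2 fold changes of −0.41, −0.41 and −0.30. Their calls were less firm. Hsph1 kept its call in 1 of the 12 fits that left out an array, with log2 fold changes of −0.52 to −0.29 over all settings. Ahsa1 lost its call without WT replicate 1 or 3 of the stimulated arrays, and Fkbp4 stood at 0.22 in another probe set. Between 4 and 6 chaperones were lower under the alternatives that keep the threshold. The probe sets of Hspa8, Hsp90aa1 and Dnaja1 with the highest signals of the list did not pass the test at −0.08, −0.17 and −0.11. Dimmer probe sets were called lower for Hsp90aa1 (−0.29) and Dnaja1 (−0.27), and these genes were called with probe sets ending in _s_at, _x_at or _a_at left out and as the mean of the probe sets, in that order. The windows of the HSP70 pair, on the minus strand of chromosome 17 at chr17:34972107-34972406 and chr17:34959189-34959488, are shown because both hold the paired unit GAANNTTC, in capitals, at the same distance from the start.
Hspa1a: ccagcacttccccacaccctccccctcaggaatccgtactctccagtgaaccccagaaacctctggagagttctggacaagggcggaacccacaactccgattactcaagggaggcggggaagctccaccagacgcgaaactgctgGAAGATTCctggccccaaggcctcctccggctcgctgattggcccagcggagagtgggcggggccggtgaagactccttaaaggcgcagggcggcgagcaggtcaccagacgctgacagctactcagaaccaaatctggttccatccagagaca
Hspa1b: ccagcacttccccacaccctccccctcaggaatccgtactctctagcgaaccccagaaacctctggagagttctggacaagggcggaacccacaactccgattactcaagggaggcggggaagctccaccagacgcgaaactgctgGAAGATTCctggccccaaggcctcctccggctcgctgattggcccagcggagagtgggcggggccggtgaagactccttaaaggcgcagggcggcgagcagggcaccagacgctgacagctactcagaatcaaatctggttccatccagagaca
Of the 6 chaperones called lower, 4 (66.7%) had a window with GAANNTTC, which reads the same on both strands, against 7.58% of the 14367 measured genes and 7.86% of all windows. The near-identical HSP70 pair makes up 2 of the 4, heat shock genes are known in part through this element, and 7.3% of the 274 genes called lower that had a window held it.

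In iron and heme handling, Slc40a1 and genes of heme transport and breakdown were lower. Of 43 genes, 8 (18.6%) were lower, 2 higher and 33 did not pass the test, with a median log2 fold change of −0.02. Between 4 and 8 were lower under the alternatives that keep the threshold. Slc48a1, which carries heme out of the lysosome, was at 11.08, 11.11 and 11.03 in WT and 10.07, 10.20 and 9.78 in Nos2-/- (log2 fold change −1.06, SE 0.089, adjusted p = 1.49e-05). Blvrb, a biliverdin reductase, was at 12.04, 12.03 and 12.03 in WT and 11.44, 11.38 and 11.34 in Nos2-/- (log2 fold change −0.65, adjusted p = 3.75e-05). Both are also in the Nrf2 list that was set aside, and in both the knockout arrays lay below all WT arrays. Spic, the transcription factor of iron-recycling macrophages, had log2 signals of 9.62, 9.56 and 9.69 in WT and 9.06, 8.92 and 8.92 in Nos2-/- (log2 fold change −0.65, adjusted p = 0.012), after untreated means of 5.28 and 5.44. Without Nos2-/- replicate 3 of the stimulated arrays Spic did not pass, with adjusted p up to 0.0811 over all settings.

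Flvcr1, an exporter of heme, and Bach1, a repressor released by heme, were lower by 0.55 and 0.34 on the log2 scale. Flvcr1 was not called without WT replicate 2 or 3 of the stimulated arrays, nor Bach1 without WT replicate 3, with adjusted p up to 0.116 and 0.0735. The ferrochelatase Fech and the phagosomal metal transporter Slc11a1 were at −0.28 and −0.25. Higher were Hp, the haptoglobin that binds free hemoglobin (0.47), and Steap4, a ferric reductase (0.51). The ferritin heavy chain Fth1, near the highest value of any probe set, where a difference may not be seen, stood at −0.01, and the iron chaperones Pcbp1 and Pcbp2 at 0.09 and 0.05, none of which passed the test.

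Among enzymes that supply NADPH the calls were all in the lower direction. The pentose phosphate pathway, malic enzyme and cytosolic isocitrate dehydrogenase reduce NADP for biosynthesis, for glutathione and for NO and superoxide production. Of 20 genes, 5 (25.0%) were lower, 0 higher and 15 did not pass, with a median log2 fold change of −0.14. Among all genes 1.91% were called lower. Taldo1, a transaldolase of the pentose pathway, was at 12.23, 12.14 and 12.16 in WT and 11.39, 11.50 and 11.29 in Nos2-/- (log2 fold change −0.78, SE 0.068, adjusted p = 1.75e-05). Malic enzyme Me1 was at 7.95, 8.00 and 7.88 in WT and 7.31, 7.22 and 7.04 in Nos2-/- (log2 fold change −0.76, adjusted p = 8.06e-05). Idh1, which also belongs to the TCA list, was at 9.79, 10.02 and 9.76 in WT and 9.27, 9.45 and 8.90 in Nos2-/- (log2 fold change −0.65, SE 0.11, adjusted p = 0.00462). It fell upon stimulation in both genotypes, from untreated means of 11.73 and 11.78, with log2 changes of −1.87 in WT and −2.57 in Nos2-/-, and the difference between the genotype effects did not pass the test (adjusted p = 0.0568). In a model of only the 6 arrays Idh1 was not called (adjusted p = 0.0591), nor was H6pd (adjusted p = 0.0692). Pgd and H6pd, dehydrogenases of the pentose pathway in the cytosol and the endoplasmic reticulum, were lower by 0.50 and 0.45. Taldo1, Me1 and Pgd are also among the Nrf2 genes that were set aside. Tkt, a transketolase, did not pass at −0.22. A dimmer probe set of Tkt was called lower (−0.26, adjusted p = 0.0353), as was the mean of its probe sets.

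Receptors coupled to G proteins moved both ways. Of 50, 6 were higher, 7 lower and 37 did not pass, with a median of 0.06. Beside Cxcr4 and Ednrb, the lower receptors included Ptger2 (−0.67), the EP2 receptor for prostaglandin E2, Ptgir (−0.55), the prostacyclin receptor, the sphingosine receptor S1pr1 (−0.67) and the lysophosphatidic acid receptor Lpar6 (−0.40), the last not called without WT replicate 2 of the stimulated arrays (adjusted p up to 0.0957). The seventh was the sphingosine receptor S1pr2 (−0.29). EP2 and EP4, which bind the same prostaglandin, diverged. Ptger2 was at 9.65, 9.79 and 9.54 in WT and 9.12, 9.01 and 8.83 in Nos2-/- (adjusted p = 0.000492). Ptger4 was at 7.77, 7.54 and 7.98 in WT and 8.48, 8.28 and 8.21 in Nos2-/- (log2 fold change 0.56, adjusted p = 0.0127), and lost its call without WT replicate 2 or Nos2-/- replicate 1 of the stimulated arrays. Higher along with Gpr34 were the orphan receptor Gpr85 (0.33), the lipid receptor Gpr18 (0.47) and the chemokine receptor Ccr1 (0.39), of which Ccr1 kept its call in 8 and Gpr18 and Gpr85 in 10 of 12 fits that left out an array (adjusted p up to 0.0712, 0.0744 and 0.13). Both probe sets of Ccr1 were called higher, at 0.39 and 0.74. The bright receptors C3ar1, C5ar1 and P2ry6, for complement fragments and nucleotides, stood at 0.02, −0.02 and 0.11 without passing.

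Genes that brake G protein and MAP kinase signaling were split in the same way. Of 36, 4 were higher (11.1%), 3 lower (8.3%) and 29 did not pass (median 0.04). Dusp2, a nuclear phosphatase of MAP kinases, was at 10.70, 10.57 and 10.85 in WT and 11.31, 11.13 and 11.43 in Nos2-/- (log2 fold change 0.58, SE 0.10, adjusted p = 0.00583). Rgs1, which shortens signals of chemokine receptors, was at 9.01, 8.89 and 8.91 in WT and 8.14, 7.78 and 8.19 in Nos2-/- (log2 fold change −0.90, SE 0.097, adjusted p = 0.000118). Dusp16, Rgs14 and Dusp7 were higher by 0.37, 0.41 and 0.34, and the phosphatase Dusp4 and the adaptor Arrb1 were lower by 0.57 and 0.65. Each of these 5 lost its call in a model of only the 6 arrays and in between 2 and 4 of the 12 fits that left out an array. All 3 probe sets of Dusp7 were called higher, from 0.34 to 0.54. Dusp1, another MAP kinase phosphatase, did not pass at −0.10.

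Guidance receptors and vascular mediators had called genes in both directions. Of 42 neuropilins, plexins, semaphorins and VEGF receptors, 3 were lower (7.1%), 3 higher (7.1%) and 36 did not pass (median −0.02). Nrp1, its partner ligand Vegfa and Plxnc1, a semaphorin receptor (−0.83, adjusted p = 0.000176), were lower. Vegfc, Sema4c, a ligand of plexin B (0.64), and Flt1, the VEGF receptor that also binds Vegfa (0.46), were higher. Vegfc was at 5.32, 5.48 and 5.51 in WT and 6.45, 6.07 and 6.08 in Nos2-/- (adjusted p = 0.000651), and all 3 of its probe sets were called. Sema4c and Flt1 each kept the call in 8 of the 12 fits that left out an array (adjusted p up to 0.101 and 0.122). Of the 4 probe sets of Flt1, 2 were called, and all 4 lay between 0.37 and 0.57. The related Nrp2, Sema4d and Plxnb2 stood at 0.02, −0.03 and 0.11. Among 46 growth factors and vascular mediators, Edn1 and Vegfc were the 2 called higher (4.3%) and Vegfa the 1 called lower (2.2%). Of all genes, 1.03% were called higher and 1.91% lower, so the lower share of this list is near that of all genes. The bright Thbs1, Procr and Igf1 stood at −0.01, 0.01 and 0.00.

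Transcription factors of the zinc finger and immediate early families numbered 56, with 4 higher (7.1%), 4 lower (7.1%) and 48 not passing (median 0.06). Gfi1 and Klf2 led the rises, with Klf3, a repressor (0.35, adjusted p = 0.00665), and Hivep3 (0.37), which kept its call in 9 of 12 fits that left out an array. Of the 5 probe sets of Hivep3, 1 was called, and the lowest stood at −0.09. Fosl1 led the falls. Prdm1, the repressor Blimp-1, was at 9.27, 8.97 and 9.22 in WT and 8.51, 8.36 and 8.33 in Nos2-/- (log2 fold change −0.75, SE 0.087, adjusted p = 0.000205), and Klf9 and the small Maf protein Maff, also an Nrf2 list gene, were lower by 0.34 and 0.46. The probe set used for Klf9 was not called without WT replicate 2 of the stimulated arrays (adjusted p up to 0.119 over all settings). Of the 7 probe sets of Klf9, 3 were called lower, at −0.88, −0.78 and −0.34. Fos, Klf6 and Maf, at high signal, stood at −0.15, 0.00 and 0.14 and did not pass.

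Lists of transporters held lower genes only, although Slc6a4, a carrier outside them, was higher. Among 33 organic ion carriers and ABC transporters, 4 were lower (12.1%) and 0 higher (median 0.00). Beside Slc22a4 these were the glutathione conjugate exporter Abcc1 (−0.45), which the Nrf2 list also holds, Abcb6 (−0.41), a porphyrin transporter, and the glycine carrier Slc6a9 (−0.37). All but Slc22a4 lost the call in a model of only the 6 arrays, and Slc6a9 also without WT replicate 2 of the stimulated arrays (adjusted p up to 0.0929). Of 21 metallothioneins and zinc transporters, 3 were lower (14.3%) and 0 higher. Slc30a1, which exports zinc from the cell, was at 10.26, 10.36 and 10.30 in WT and 9.42, 9.30 and 9.49 in Nos2-/- (log2 fold change −0.90, SE 0.077, adjusted p = 1.67e-05). Slc39a4, a zinc importer, was at 7.27, 7.36 and 7.54 in WT and 6.59, 6.65 and 6.57 in Nos2-/- (log2 fold change −0.79, adjusted p = 0.000148), so export and import genes for zinc were both lower. Slc30a4 was lower by 0.34, though not without WT or Nos2-/- replicate 3 of the stimulated arrays (adjusted p up to 0.106), and the metallothioneins Mt1 and Mt2, which bind zinc, stood at −0.09 and 0.05 without passing. A dimmer probe set of Mt1 was called lower at −0.72 (adjusted p = 0.000133), and so was the mean of both, at −0.41. Of 28 amino acid transporters, Slc43a2 (−0.63) and Slc36a4 (−0.46) were lower (7.1%) and 0 higher, and Slc43a2 lies near Nos2 on chromosome 11.

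Among 32 genes of arginine, polyamine and NO signaling, leaving Nos2 aside, Arg1 and Azin1 were lower (6.2%) and 0 higher. Arg1, the arginase that competes with iNOS for arginine, was at 10.12, 10.08 and 10.33 in WT and 9.40, 9.44 and 8.72 in Nos2-/- (log2 fold change −0.99, SE 0.16, adjusted p = 0.00374). It was below the array medians untreated, at 4.36 and 4.56, and rose upon stimulation in both genotypes, with the 3 knockout arrays below the WT arrays. Azin1, which raises polyamine synthesis, was lower by 0.39, and Oaz1, Sat1 and Smox of the polyamine pathway did not pass at −0.05, 0.05 and 0.07. Of 26 genes of NAD and kynurenine metabolism, Nmrk1, a nicotinamide riboside kinase, was the only 1 called (3.8%). It was at −0.68, and at −0.27 as the mean of its probe sets. The brightest probe set of Nampt, from the same list, did not pass at −0.20. Its 2 dimmer ones were called lower, at −0.48 and −0.38.

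Of 45 genes of cholesterol, fatty acids and LXR, 5 were lower (11.1%), 1 (Ch25h, 2.2%) higher and 39 did not pass (median −0.06). Mylip, a ubiquitin ligase that removes the LDL receptor, was at 10.05, 9.84 and 10.11 in WT and 9.23, 8.90 and 9.16 in Nos2-/- (log2 fold change −0.90, SE 0.094, adjusted p = 8.23e-05). Sqle, an enzyme of sterol synthesis, was lower by 0.65, Cd36, a scavenger and fatty acid receptor, by 0.60 and the desaturase Fads1 by 0.40. A dimmer probe set of Fads1 stood at 0.06, and the gene was not called as the mean of its probe sets or with only the 6 arrays. Scd2, another desaturase, was at −0.91 but kept its call in 2 of 12 fits that left out an array. The bright Apoe, Plin2 and Lpl stood between 0.01 and 0.02. Among 50 genes of lysosome and autophagy, 5 were lower (10.0%) and 0 higher. These were the autophagy proteins Gabarapl1 (−0.65) and Sqstm1 (−0.51), the proton pump subunit Atp6v1a (−0.40) and the factors Mitf (−0.30) and Tfeb (−0.32) that drive lysosomal genes. Tfeb kept its call in 2 and Mitf in 10 of 12 fits that left out an array (adjusted p up to 0.206 and 0.108). Lamp1, Npc2 and Gpnmb stood at −0.04, 0.03 and 0.04.

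Stress genes other than chaperones were divided. Of 38 p53 targets and apoptosis genes, 4 were lower (10.5%) and 1 higher (2.6%). Plk2, a stress kinase, was at 9.44, 9.29 and 9.50 in WT and 8.15, 8.23 and 8.72 in Nos2-/- (log2 fold change −1.04, adjusted p = 0.000193), and 1 of its 2 probe sets was called. The cell cycle inhibitor Cdkn1a was lower by 0.43 and Ccng1 by 0.27, and Apaf1, the scaffold of the apoptosome, was higher by 0.32. Ccng1 kept its call in 1, Apaf1 in 9 and Cdkn1a in 10 of the 12 fits that left out an array. Among 36 genes of the integrated stress response, 3 were lower (8.3%) and 2 higher (5.6%). Ppp1r15a, the phosphatase subunit that ends the response, Atf3, a stress-induced factor, and Sesn2, an inhibitor of mTORC1, were lower by 0.66, 0.60 and 0.47. Herpud1 and Dnajb9, of endoplasmic reticulum quality control, were higher by 0.33 and 0.26 and kept their calls in 8 and 5 of those 12 fits. Hspa5 and Xbp1, of the same compartment, did not pass at 0.09 and 0.10.

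Of 60 scavenger and phagocytic receptors, 4 were lower and 2 higher (median 0.00). These shares, 6.7% and 3.3%, stood against 1.91% and 1.03% of all genes. Clec4n, the lectin receptor Dectin-2, was at 11.11, 11.25 and 11.05 in WT and 10.33, 10.22 and 10.09 in Nos2-/- (log2 fold change −0.92, SE 0.087, adjusted p = 3.61e-05), Tlr13, a sensor of bacterial ribosomal RNA, was lower by 0.55 and Stab1 by 0.38. Siglec1, the sialoadhesin, was higher at 0.57 and kept its call in 9 of 12 fits that left out an array. Of its 3 probe sets 1 was called, and the others stood at 0.24 and −0.04. Siglec1 was not called with only the 6 arrays or as the mean of its probe sets. Cd14, Clec4d and Fcer1g, all bright, stood at 0.04, −0.04 and 0.05. Of 42 integrin and adhesion genes, 1 was higher (2.4%) and 2 lower (4.8%). Itga4 was higher (0.46), and Ninj1, which ruptures the membrane of dying cells (−0.44), and the tetraspanin Cd81 (−0.37) were lower.

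Several lists held few called genes, some near the shares over all genes (1.91% lower, 1.03% higher). Antiviral genes stood at 2.1% in each direction and replication genes at 2.0% lower. At such shares a call says nothing about its list. Of 48 antiviral interferon-stimulated genes, Trim21 was higher (0.34, called in 2 of 12 fits that left out an array) and Xaf1 lower (−0.70), but the other probe set of Xaf1 stood at 7.11 and the mean of its probe sets at 3.21, so its direction turns with the probe set. The bright Ifitm3, Oas1a and Ifi35 stood at 0.02, 0.04 and 0.08 without passing. Of the 48, 39 were above 0 (median 0.11), against 8708 of all 18193 genes. Of 23 genes of MHC class II and costimulation only Tnfsf4 was called, and Cd74 and H2-Aa stood at 0.07 and 0.07. Among 34 matrix proteases and inhibitors the granzyme inhibitor Serpinb9 was lower (−0.39), and of 27 prostaglandin and leukotriene genes Ptgr1 alone was called. In the TCA list Idh1 and the aspartate aminotransferase Got1 (−0.60) were lower of 38, and Acod1, which makes itaconate, stood at −0.02 with a mean signal of 14.30 in WT and 14.29 in Nos2-/-, close to the highest value of any probe set, where a difference may not be seen. Of 55 genes of the electron transport chain and ATP synthase, 0 were called by limma and 6 were lower at an unadjusted p under 0.05. Of the 55, 48 had a value below 0, with a median of −0.08, against 9475 of all 18193 genes. Whether they moved together was not tested. The proteasome list gave a like picture, with 32 of 35 subunits below 0 (median −0.09) and 3 called lower, Psmc1 (−0.36), Psmb5 (−0.30) and Psmd11 (−0.27), and 1 under a replicate block. Leaving genes near Nos2 out of the list left 2 of these 3. Psmb5 and Psmd11 kept their calls in 3 and 2 of 12 fits that left out an array and lost them when each array was centred on its median. Of 51 replication and mitosis genes, Pcna was called lower (−0.34), not without WT replicate 1 or 3 or Nos2-/- replicate 3 of the stimulated arrays (adjusted p up to 0.119 over all settings).

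**Figure D4:**
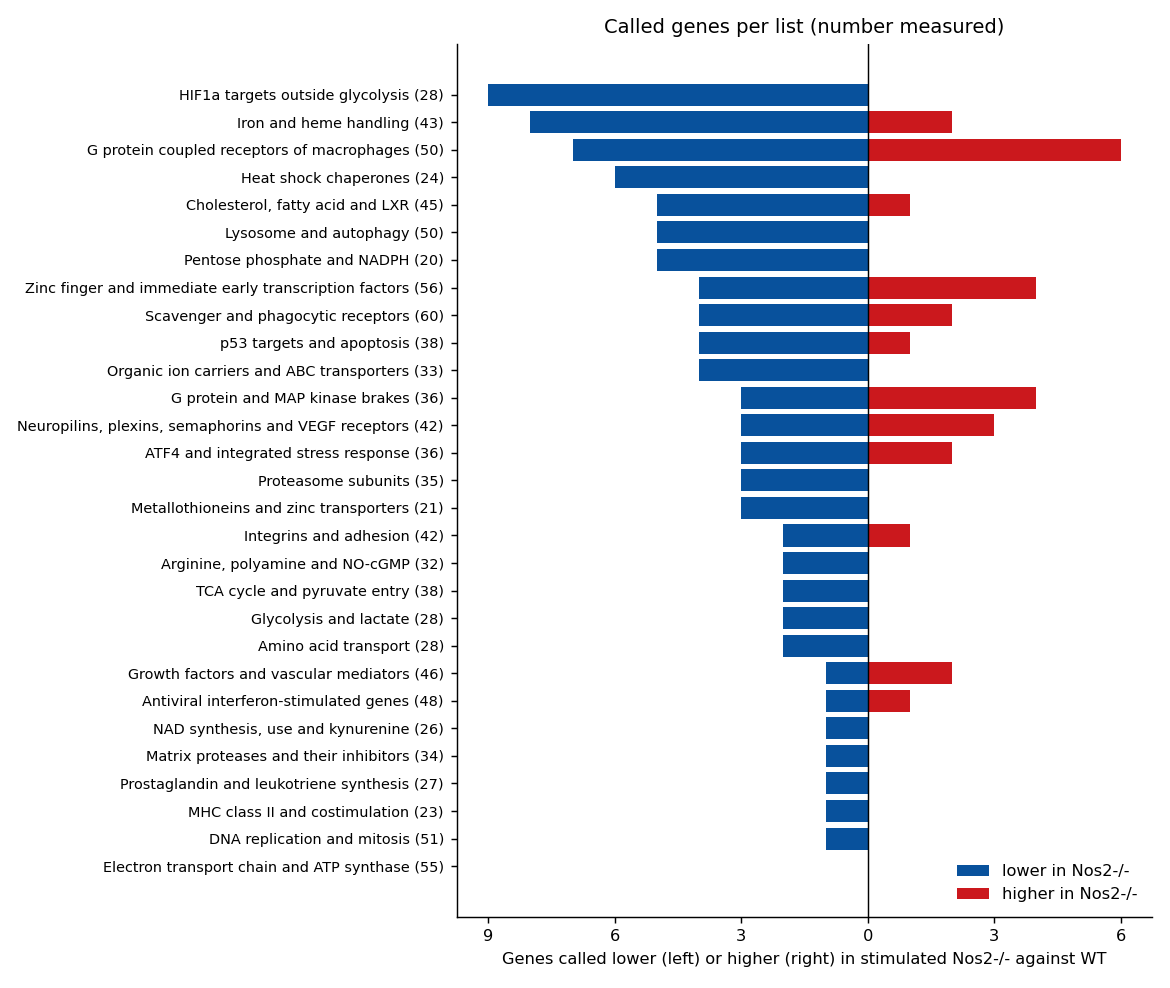
Number of genes called lower (blue, left) and higher (red, right) in stimulated Nos2-/- against stimulated WT, for 29 lists of genes, with the number of measured genes of each list in brackets. HIF1a targets outside glycolysis had 9 lower and 0 higher genes, G protein coupled receptors 7 and 6, and the electron transport chain 0 and 0. Over all genes, 1.91% were called lower and 1.03% higher.

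The genotype difference was small before stimulation. Untreated Nos2-/- differed from untreated WT at 2 genes, 0.011% of those tested, Tlcd2 (0.81) and Xaf1 (−0.87), and 728 genes had an unadjusted p under 0.05. The other probe set of Xaf1 went the opposite way, from a mean of 5.64 in untreated WT to 11.82 in untreated Nos2-/-. Leaving out WT replicate 1, WT replicate 3 or Nos2-/- replicate 1 of the untreated arrays left 0. Of the 535 genes that differed after stimulation, 410 had an untreated log2 difference smaller than 0.25 of the stimulated one. The median untreated difference was −0.03 among genes higher and −0.01 among genes lower after stimulation. The difference between the stimulated and the untreated genotype effects, an interaction in the same model, passed the test at 178 genes (0.978%), 55 in the higher and 123 in the lower direction, and 171 of these were among the 535. That number fell to between 93 and 115 without WT untreated replicate 1 (93), 2 (96) or 3 (106), WT stimulated replicate 1 (114) or Nos2-/- untreated replicate 1 (115).

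**Figure D5:**
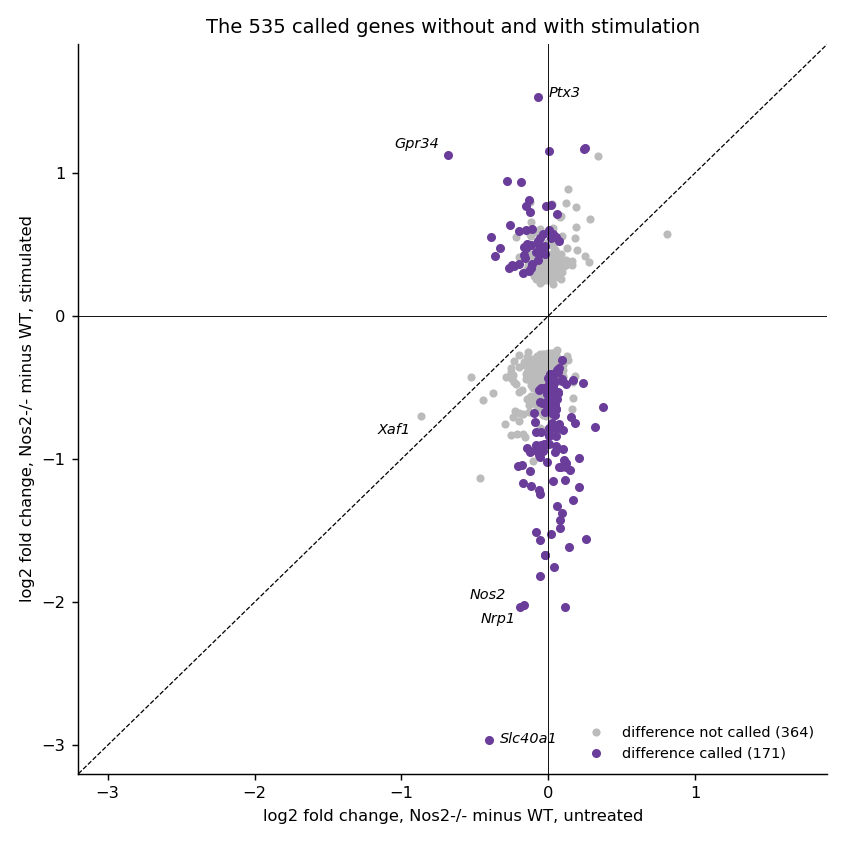
Log2 difference between Nos2-/- and WT in stimulated arrays (vertical axis) against that in untreated arrays (horizontal axis) for the 535 called genes. Purple points are the 171 genes whose difference between the effects was called, grey points the other 364, and the dashed line marks equal effects. Most points lie near 0 on the horizontal axis, Slc40a1 at −0.40 and −2.96 and Gpr34 at −0.68 and 1.12, while Xaf1 lies near the line.

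Seen against the response to stimulation, with which the comparison shares its stimulated arrays, the lower genes were of 2 main kinds. Of the 347, 140 rose upon stimulation in WT, and in Nos2-/- 78 of these rose too, 38 were not called and 24 fell. Another 161 fell in WT, Nrp1 and Cxcr4 among them, and 46 were not called in WT, of which 37 fell in Nos2-/-. Slc40a1 changed by 0.42 in WT and by −2.14 in Nos2-/- on the log2 scale. Of the 188 higher genes, 120 rose in WT and 46 fell, and of those 46, 28 fell in Nos2-/- as well, 16 were not called and 2 rose. Ptx3 belonged to the former, with 3.26 in WT and 4.87 in Nos2-/-, and Txnip to the latter, with −1.27 and −0.48.

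The region around Nos2 was counted apart because of the strain that carries the allele. Within 300 gene positions on either side of Nos2 on chromosome 11, 22 of 501 measured genes were called (4.39%), against 2.9% of the genes elsewhere, and leaving the 501 out gave 177 higher and 335 lower genes. Xaf1, an interferon-induced gene in this window, was at 12.39, 12.39 and 12.35 in stimulated WT and 11.69, 11.70 and 11.66 in stimulated Nos2-/- arrays (log2 fold change −0.70) and lower untreated too. Its other probe set, dimmer in WT, went the other way by 7.11 on the log2 scale, with means of 6.24 in stimulated WT and 13.36 in stimulated Nos2-/-. The probe sets of Xaf1 therefore give opposite directions, with and without stimulation, and whether the flanking strain sequence has a part in this was not tested.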

How the data were processed

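RNA of BMDMs was hybridised to Affymetrix mouse genome arrays, 3 per group. The authors processed the images with RMA in Partek Genomics Suite and deposited log2 signals of 45101 probe sets, whose array medians lay between 5.14 and 5.21. Signals below these medians may not be above background. Folds that rest on them are uncertain in size, also for genes where this is not said. RMA sets all arrays to 1 distribution, which can hide a shift shared by most genes. Of the 45037 probe sets that are no controls, the 34945 naming 1 gene were kept, and each gene was read from the brightest over 12 arrays, giving 18193 genes.

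A linear model of 4 groups was fitted with limma 3.58.1 (R 4.3.3, lmFit and eBayes), without a minimum fold, and p-values were two-sided and adjusted by Benjamini-Hochberg over all genes, with calls at 0.05. Named were the 20 largest rises and falls outside the Nrf2 and cytokine lists, among called genes whose stimulated groups did not overlap. Per list, up to 6 called members per direction and the 3 brightest that did not pass were named as well. Any other gene named was chosen after its values were seen. The members and lists were chosen with earlier results of these data known. Promoter windows came from RefSeq (GRCm38.p6), with a window for 14367 genes. The fit was tested on simulated data. Alternatives changed the samples, variance model, scaling, probe set choice and thresholds, left out each array in turn, or added a replicate block. The array images were not used here.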

Additional observations from a re-analysis of the deposited data

Results flagged for a closer look

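The genotype effect of stimulated arrays differed from that of untreated arrays, by the interaction in the same limma model, at 178 genes, 55 in the higher and 123 in the lower direction. On the log2 scale, these differences of effects among genes of the report were largest in the lower direction for Slc40a1 −2.56, Nrp1 −1.85, Nos2 −1.84, Slc22a4 −1.82, Dnajb4 −1.65, Ampd3 −1.65, Ptgr1 −1.54, Cxcr4 −1.51, Afp −1.50, Hspa1a −1.47, Panx1 −1.43, Hspa1b −1.40, Treml4 −1.38, Adm −1.26, Egln3 −1.22, Arg1 −1.20, Tnfsf4 −1.19, Cyb5a −1.19, Fosl1 −1.16, Ednrb −1.14, Slc48a1 −1.13, Rhob −1.06, Slc43a2 −1.01 and Cebpa −1.0. Smaller ones were found for Ankrd37 −0.89, Rgs1 −0.88, Plk2 −0.86, Taldo1 −0.85, Mylip −0.85, Me1 −0.83, Slc30a1 −0.82, Slc39a4 −0.80, Clec4n −0.78, Gabarapl1 −0.70, Blvrb −0.70, Ptger2 −0.65 and Cd36 −0.61. The smallest in this direction were Atf3 −0.59, Mxi1 −0.58, Abcc1 −0.55, Got1 −0.54, Ninj1 −0.53, Pgd −0.51, Sqstm1 −0.50 and Serpinb9 −0.46. In the higher direction they were Gpr34 1.81, Ptx3 1.60, Klf2 1.23, Zfp658 1.15, Fst 1.12, Tle3 0.95, Otud1 0.92, Gfi1 0.92, Edn1 0.92, Sema4c 0.90, Gpr18 0.80, Txnip 0.78, Zfp558 0.75, Rcl1 0.65, Klf3 0.58 and Apaf1 0.45. Groups of 3 arrays are too small to test a single array for standing apart.

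Probe sets without a gene of their own were outside the comparison. Of 9160 that name no gene, 76 were called between the stimulated genotypes, 34 higher and 42 lower, and 0 between the untreated ones. Of 932 that name several genes, 14 were called, 7 in each direction. They are not named here.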

How the results depend on the processing

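Of the 132 called genes named by the rule given above, 76 kept the call under every alternative but the fold thresholds, and 49 lost it with only the 6 arrays compared. Called genes outside that rule, such as Ero1a, Hilpda, Rora, Fech, Slc11a1, S1pr2 and Vwf, were not followed gene by gene under the alternatives. Direction reversed in 2, Xaf1 at 3.21 as the mean of its probe sets and Fkbp4 at 0.22 with probe sets ending in _s_at, _x_at or _a_at left out, where the alternative reads other probe sets. The 535 genes of the stimulated comparison (188 higher, 347 lower), the 2 of the untreated comparison and the 178 of the difference between effects moved as follows. With only the 6 arrays there were 234 (59 higher, 175 lower), and 0 untreated. Without moderation of the variance the untreated genes were 0 and the differences 108. An intensity trend gave 309 higher, 5 untreated and 302 differences. Leaving out genes below the median signal gave 328 higher and 294 differences. Quantile normalization, and leaving out _s_at, _x_at or _a_at probe sets, each gave 1 untreated gene. The thresholds printed in the methods gave 175 (39 higher, 136 lower), and a fold of 1.5 as well gave 163 (34 and 129). Array weights gave 347 (101 higher) and 7 untreated genes. A replicate block gave 475 (167 higher, 308 lower), 2 and 151, of which 446 of the 475 were shared with the 535. Correlations of arrays with the same number ran between −0.26 and 0.21. Between the untreated genotypes they were 0.11, 0.03 and 0.21. A pair with different numbers, WT replicate 3 and Nos2-/- replicate 1 of the stimulated arrays, stood at 0.27. Groups of 3 arrays cannot show whether the numbers pair the arrays. Leaving out 1 array gave 102 (without WT stimulated replicate 1) to 245 (without Nos2-/- stimulated replicate 2) higher genes, 0 to 3 untreated genes and 93 to 210 differences. The cause of these changes was not tested. With 3 arrays a group, their number limits the precision.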
